A study of Homo sapiens with 28 samples.

Results

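Lysosomal hydrolases and membrane proteins are described here in U937, a human monocytic cell line, in which single members of the NF-kB family of transcription factors had been knocked out. The genes were chosen by symbol from a list of 45, and all 45 were found among the 56809 gene symbols of the deposited tables. By role the list holds 12 glycosidases, 3 sulfatases, 4 lipid hydrolases and acylhydrolases, 2 sphingolipid activators, 10 proteases, the granulin precursor GRN, 9 membrane proteins with the lipid exporters NPC1 and NPC2, and 4 subunits of the proton pump V-ATPase. Polyadenylated RNA was sequenced in 28 libraries from 14 clones. There were 3 CTR clones, which carried guide RNAs without a specific target, 3 p65 (RELA) knockout clones, and 2 clones each of the p50 (NFKB1), p52 (NFKB2), cREL (REL) and RELB knockouts. Each clone gave 1 untreated library and 1 library treated with LPS, the bacterial cell wall lipid that is sensed by TLR4, at 500 ng/ml, and the labels give 6 h for both. This makes 12 groups of genotype and treatment. The clones were spread over 3 sample batches: batch A holds knockout clones only, batch B holds CTR replicate 2 with p50, p52, cREL and RELB clones, and batch C holds CTR replicates 1 and 3 with p65 replicates 2 and 3.

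Lysosomes break down proteins, glycans and lipids that reach them by endocytosis, phagocytosis and autophagy. Hydrolases work in an acid lumen that the V-ATPase maintains, and membrane proteins carry the products out or protect the limiting membrane. Many lysosomal genes carry an E-box variant, the CLEAR element, that is bound by TFEB and its relatives, and macrophages and monocytes are known for high lysosomal capacity. Loss of single members causes storage diseases, such as Tay-Sachs disease for HEXA and Niemann-Pick disease type C for NPC1.

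Library totals were 12643438 to 22122428 estimated counts. Of the 13 monocytic markers, 12 had a mean above 1 TPM, a transcript level scaled for transcript length and for the library, and the summed level of the list was 2402 to 6446 TPM in CTR and 3382 to 7773 TPM in the knockouts. Markers of platelets, epithelial cells and fibroblasts summed to at most 19.7, 2.68 and 3.44 TPM, with 2, 1 and 1 of 5 at 0 in every library. The T and NK list, with 1 of 8 at 0, summed to 274 to 528 TPM in CTR and 102 to 495 TPM in the knockouts, and NKG7, at a mean of 340 TPM, led it. RELA transcript in the libraries labelled p65 replicate 1 was 43.7 TPM untreated and 52.1 TPM with LPS, above all 6 CTR libraries (23.2 to 38.3 TPM), while p65 replicates 2 and 3 held 3.20 to 8.19 TPM. That clone goes against its label on the RNA level, and the main results on p65 are also given without it. REL in the cREL clones, at 2.49 to 8.61 TPM, was below all CTR libraries (10.4 to 14.7 TPM), and NFKB1 in p50 was below CTR within each treatment (2.75 and 3.75 against at least 5.68 TPM untreated, 4.10 and 6.83 against at least 10.3 TPM with LPS). NFKB2 in p52 was below CTR with LPS (1.63 and 1.96 against at least 5.19 TPM) and overlapped it untreated, and RELB in RELB overlapped CTR in both treatments. Edited transcripts can still be counted, so RNA levels check these labels only in part.

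CTSD led the members by level. The aspartic protease CTSD averaged 3654 TPM over the 28 libraries, followed by the cysteine protease CTSB at 694 TPM, the depalmitoylating enzyme PPT1 at 654 TPM and the acid ceramidase ASAH1 at 653 TPM. At the other end, the proteases LGMN and CTSL averaged 0.309 and 0.272 TPM and had at most 6.00 and 18.1 estimated counts in any library. These 2 did not pass the filter on low counts, and 43 members were tested among 18624 genes. The summed TPM of all 45 members was 8826 to 12490 in CTR, 8195 to 16059 in p50, p52, p65 and cREL, and 13822 to 16023 in RELB. Each RELB library was above all 6 CTR libraries in this sum of TPM. Without CTSD the sums were 6943 to 7881 TPM in CTR and 9633 to 10599 TPM in RELB. In library-scaled counts (CPM) the sums of CTR and RELB libraries overlapped, with and without CTSD.

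**Figure D1:**
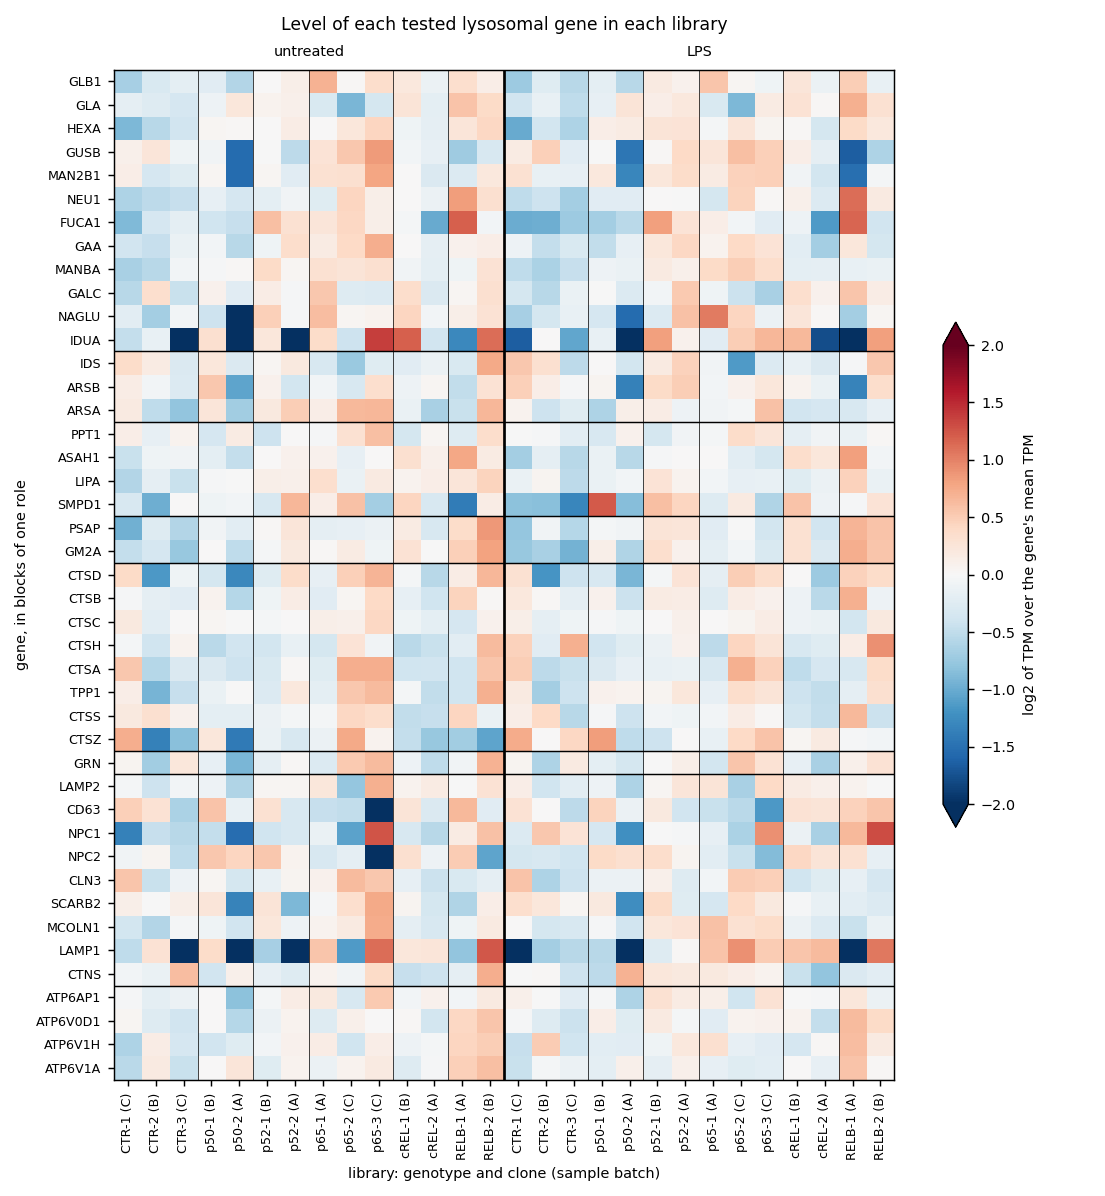
Level of the 43 tested lysosomal genes (rows, in blocks of 1 role, highest mean first) in the 28 libraries (columns, untreated on the left and LPS on the right, sample batch in brackets), as the log2 of TPM over the gene's own mean TPM. Untreated p65 replicate 3 is the highest library for 13 genes and untreated p50 replicate 2 the lowest for 10.

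High and low values clustered in a few clones. Of the 43 tested members, 21 had their highest TPM in a RELB library and 13 in p65 replicate 3, while 13 had their lowest in p50 replicate 2 and 16 in a CTR library. No tested member had its highest TPM in CTR. In library-scaled counts (CPM) some did, among them CTSD, CTSA, CTSC, CTSH and CD63. CTSD was at 6079 CPM in untreated CTR replicate 1 and at most 5830 CPM in a knockout library. Highest and lowest libraries were not counted over all genes. The fitted spread between libraries of a group, left after the batch term, was below the median of all genes for most members. This biological coefficient of variation had a median of 20.6% for the members and 31.3% for all genes tested, and 7 members were above the latter. The genes were not matched by level. The widest range belonged to the iduronidase IDUA, which ran from 0.395 to 19.2 TPM, and to the membrane glycoprotein LAMP1, which ran from 1.60 to 32.5 TPM. LAMP2, the other major lysosomal membrane glycoprotein, ranged only from 309 to 860 TPM.

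The member of highest level in each role is given next for every clone, as the mean TPM of its untreated and its LPS library. CTSD was at 4646, 1633 and 3093 TPM in CTR replicates 1 to 3, 2888 and 1711 in p50, 3322 and 4565 in p52, 3248, 5098 and 5238 in p65, 3597 and 2339 in cREL, and 4548 and 5230 in RELB. The CTR clones lay far apart, and the CTR clone in batch B was the lowest clone of the series. GLB1, the lysosomal beta-galactosidase, was at 269, 361 and 339 TPM in CTR, 377 and 294 in p50, 465 and 467 in p52, 672, 447 and 484 in p65, 511 and 403 in cREL, and 583 and 436 in RELB. In TPM all 11 knockout clones but p50 replicate 2 exceeded every CTR clone, a share not taken over all genes. In CPM, RELB replicate 2 was also below CTR replicate 3. It was at 438.5 CPM untreated and 461.2 CPM with LPS, against 497.5 and 468.9 CPM. PPT1 was at 684, 615 and 626 TPM in CTR, 521 and 716 in p50, 503 and 641 in p52, 641, 826 and 879 in p65, 545 and 645 in cREL, and 570 and 749 in RELB, so the groups overlapped. PSAP, the precursor of the saposins, was at 258, 420 and 313 TPM in CTR, 450 and 426 in p50, 519 and 555 in p52, 408, 442 and 399 in p65, 554 and 366 in cREL, and 677 and 778 in RELB. The RELB clones had the highest values of PSAP. GRN, the secreted and lysosomal progranulin, was at 410, 250 and 456 TPM in CTR, 350 and 259 in p50, 372 and 415 in p52, 316, 573 and 546 in p65, 359 and 264 in cREL, and 401 and 562 in RELB, with the groups overlapping. LAMP2 was at 545, 398 and 481 TPM in CTR, 492 and 344 in p50, 543 and 583 in p52, 624, 324 and 777 in p65, 575 and 577 in cREL, and 538 and 583 in RELB. In p65 the clones spanned more than the whole CTR range. ATP6AP1, an accessory subunit of the V-ATPase, was at 234, 213 and 202 TPM in CTR, 227 and 139 in p50, 252 and 254 in p52, 255, 178 and 302 in p65, 223 and 234 in cREL, and 244 and 233 in RELB. The sulfatase IDS, which acts on heparan and dermatan sulfate, was at 99.9, 86.2 and 55.0 TPM in CTR, 79.2 and 58.2 in p50, 78.7 and 91.4 in p52, 63.8, 38.2 and 60.9 in p65, 64.1 and 63.2 in cREL, and 65.2 and 115 in RELB. In these TPM means, IDS overlapped between CTR and every genotype. For ATP6AP1 both p52 clones were above all CTR clones in TPM, while the other genotypes overlapped them. In CPM, ATP6AP1 in p52 overlapped CTR as well. On that scale IDS was lower without overlap in untreated p65, as were 5.17% of all genes.

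Promoter sequence was read for the 33 members that have a window in the RefSeq table (build GRCh38.p14; 250 bases before to 50 after the start). The extended E-box TCACGTG, searched on both strands, occurred in 9 of these 33 members (27.3%) and in 3.71% of all 35116 windows, or 4.49% of 27305 genes. These 9 were GAA, NEU1, ARSB, CTSA, CTSD, LAMP1, MCOLN1, CLN3 and ATP6V0D1. The shorter E-box CACGTG, which lies inside it, occurred in 10 members (30.3%, against 8.77% of all genes), and the longer palindromic CLEAR consensus in 2 (6.06%, against 0.421%), GAA and MCOLN1. The kB motif, searched by its usual degenerate form on both strands, occurred in 4 members (12.1%, against 7.09% of all genes), MAN2B1, SMPD1, CTSZ and CD63. A match describes the letters only. Sites are shown for GAA and MCOLN1, which hold the CLEAR consensus, for NEU1, CTSD and ATP6V0D1 as examples among members whose values are described, and for LAMP1, which holds the most. They are printed 5′ to 3′ on the strand of the gene, with the match in capitals and 10 bases on either side; capitals of 8 letters mark matches on both strands that overlap. GAA, the acid alpha-glucosidase, and MCOLN1, a calcium channel of the lysosomal membrane, hold 2 sites each, and the nearer to the start is shown, for GAA at chr17:80101539-80101566 (+). For MCOLN1 it lies at chr19:7522599-7522626 (+). NEU1 has its site at chr6:31862932-31862958 (−), CTSD at chr11:1763958-1763984 (−) and ATP6V0D1, a V-ATPase subunit, at chr16:67481200-67481227 (−). LAMP1 holds 6 sites in its window, the most among the members, and the one nearest the start lies at chr13:113297227-113297254 (+).
GAA: ctcccgccggTCACGTGAcccgcctctg
MCOLN1: ggctaccgggTCACGTGAccgaggcaca
NEU1: tgctgcgtgaTCACGTGggaggagatg
CTSD: cggccgcgccCACGTGAccggtccggg
ATP6V0D1: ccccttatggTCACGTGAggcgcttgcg
LAMP1: gcggcgcagcTCACGTGAcaagcgctgc
GM2A and NPC1, on which several results below turn, have windows without TCACGTG. The 250 bases before the RefSeq start of GM2A lie at chr5:151252935-151253184 (+). They are shown because the level of this gene in RELB is part of how the list was chosen. Those before the RefSeq start of NPC1, at chr18:23586507-23586756 (−), are shown because it moved with LPS. Both stretches lie inside the GENCODE spans given below for these genes. They therefore precede the RefSeq start used here and not the outermost start of the gene.
GM2A: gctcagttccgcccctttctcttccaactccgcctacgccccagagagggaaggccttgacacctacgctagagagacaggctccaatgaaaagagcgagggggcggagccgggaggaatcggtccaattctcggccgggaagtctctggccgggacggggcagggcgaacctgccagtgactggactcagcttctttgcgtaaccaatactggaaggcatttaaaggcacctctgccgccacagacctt
NPC1: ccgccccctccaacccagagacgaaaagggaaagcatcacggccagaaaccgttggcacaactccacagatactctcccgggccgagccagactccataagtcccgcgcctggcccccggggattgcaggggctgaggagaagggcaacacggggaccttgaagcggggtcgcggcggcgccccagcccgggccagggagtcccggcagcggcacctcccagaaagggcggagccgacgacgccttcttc

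Knockout clones had, on the whole list, somewhat higher levels than CTR, with HEXA passing the test. The comparison set the mean of the 5 knockouts against CTR, once untreated and once with LPS, with batch as a term of the model, and adjusted p-values are by Benjamini-Hochberg over all 18624 genes from edgeR's quasi-likelihood test. Untreated, none of the 43 members passed (0.0322% of all genes did). At an unadjusted p under 0.05, 12 members were higher and 0 lower, where 4.04% of all genes were higher and 4.76% lower. The other tools called 3 (DESeq2) and 0 (limma voom) members. With LPS, HEXA passed and was higher, where 0.838% of all genes passed in either direction. GM2A also had an adjusted p under 0.05 there, but its level in RELB with LPS was known when the list was made and enters this mean, so it is not counted as a test. At an unadjusted p under 0.05, 16 members including GM2A were higher and 0 lower (4.68% and 7.12% of all genes). Among the marker lists, TRAC of the T and NK list was lower in the mean of the knockouts with LPS, by −1.36 on the log2 scale (adjusted p = 0.0334), at a mean level of 3.86 TPM, and 1 of the 5 tested genes of that list was above 0; of 12 tested monocytic markers 10 were above 0 and none passed. Their part in the results was not tested. The median log2 difference was 0.25 untreated and 0.26 with LPS over the members, and −0.03 and −0.04 over all genes tested. It was above 0 for 36 and 32 of 43 members, against 47.3% and 45.9% of all genes. Without the batch term the median with LPS fell to 0.080 and the count above 0 to 23.

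**Figure D2:**
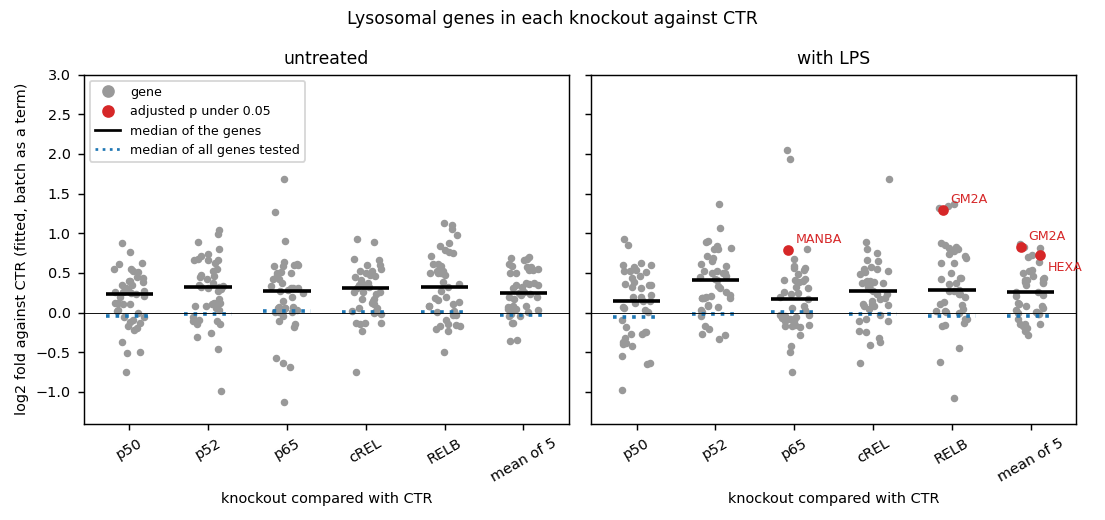
Fitted log2 difference from CTR (vertical axis) of each of the 43 tested lysosomal genes (points) in each knockout and in the mean of the 5 (horizontal axis), untreated and with LPS. Black bars are the medians of these genes and dotted blue bars those of all genes tested; red points had an adjusted p under 0.05, GM2A included, whose RELB value with LPS was known beforehand. All knockouts are compared with the same CTR libraries.

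By role, the medians in the mean of the knockouts with LPS ran from the sphingolipid activators, GRN and the glycosidases at the top to the sulfatases. Among glycosidases 11 of 12 were above 0, with a median log2 difference of 0.41, and both activators were above 0, with a median of 0.65, GM2A being one of them. GRN, alone in its role, was at 0.54. All 4 lipid hydrolases were above 0 (median 0.23), as were 7 of the 8 tested proteases (median 0.16). Membrane proteins, sulfatases and V-ATPase subunits lay near 0, with medians of −0.01, −0.14 and −0.005 and 4 of 9, 1 of 3 and 2 of 4 above 0. The 9 members with TCACGTG in the promoter had a median of 0.37 untreated and 0.41 with LPS, and the 23 tested members whose window lacks it one of 0.24 and 0.11. The ranges with LPS, −0.14 to 0.86 and −0.19 to 0.83, overlap.

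HEXA, which encodes the alpha subunit of beta-hexosaminidase A and lies at chr15:72340919-72376476 on the minus strand (GENCODE 29, GRCh38), was higher in every knockout clone. It was at 196, 250 and 282 TPM in the untreated CTR clones and 182, 284 and 240 TPM in the same clones with LPS. In p50 it was at 374 and 372 TPM untreated and 400.0 and 410 TPM with LPS, and in p52 at 368 and 407 TPM untreated and 439 and 441 TPM with LPS. In p65 the untreated values were 366, 427 and 492 TPM and those with LPS 355, 433 and 380 TPM. The cREL clones had 346 and 322 TPM untreated and 373 and 288 TPM with LPS, and the RELB clones 431 and 490 TPM untreated and 478 and 422 TPM with LPS. The groups did not overlap: all 22 knockout libraries lay above all 6 CTR libraries, on the TPM scale and in library-scaled counts (CPM), and HEXA was the only member for which this held in CPM (0.0215% of all genes). The lowest knockout library, cREL replicate 2 with LPS, was close to the highest CTR library. In the mean of the knockouts HEXA was higher by 0.73 on the log2 scale with LPS (SE 0.13, adjusted p = 0.0114) and by 0.67 untreated (SE 0.14, adjusted p = 0.13). In each single knockout with LPS it was at 0.54 (cREL) to 0.86 (p50), with adjusted p-values of 0.0551 in p50, 0.0740 in p52, 0.0773 in p65, 0.102 in RELB and 0.276 in cREL. Within batch B the 4 knockout clones were above the CTR clone by 0.50 to 0.75 on the log2 scale, and within batch C p65 replicates 2 and 3 were above the mean of the CTR clones by 0.58 to 0.80. HEXA kept its call with LPS in 13 of 14 fits that left out a clone; without CTR replicate 2 the log2 difference was 0.98 and the adjusted p 0.0648.

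GM2A, at chr5:151212150-151270440 on the plus strand, encodes the activator that presents ganglioside GM2 to the HEXA-containing enzyme. It was at 21.6, 23.9 and 17.7 TPM in the untreated CTR clones and at 17.7, 19.2 and 15.5 TPM in the same clones with LPS. In p50 the values were 30.2 and 21.1 TPM untreated and 32.7 and 19.7 TPM with LPS, and in p52 29.1 and 34.3 TPM untreated and 38.1 and 31.9 TPM with LPS. In p65 GM2A was at 30.6, 33.7 and 28.3 TPM untreated and 26.3, 28.9 and 24.3 TPM with LPS. In cREL it was at 36.5 and 29.7 TPM untreated and 37.1 and 24.6 TPM with LPS, and in RELB at 41.7 and 52.3 TPM untreated and 49.4 and 43.9 TPM with LPS. All 4 RELB libraries were above the other 24, on the TPM scale and in CPM. In TPM this also held for ATP6V0D1, GLA and PSAP, a share not taken over all genes. With LPS all knockout libraries were above all CTR libraries on both scales. In CPM, HEXA was the only other member for which this held (0.51% of all genes). For GM2A both separations are descriptions, since they include the RELB libraries with LPS known when the list was made. Against CTR with LPS, RELB was higher by 1.29 on the log2 scale (SE 0.21), which is a description, since this value was known when the list was made; 0.0483% of all genes passed in that comparison. In the mean of the 5 knockouts with LPS, which includes those RELB libraries, the difference was 0.83 (SE 0.16), likewise a description. Untreated it was 0.55 (SE 0.16, adjusted p = 0.304). Within batch B the knockout clones with LPS were above the CTR clone by 0.88 to 1.10, and within batch C by 0.38 and 0.57.

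NEU1, a sialidase that acts on gangliosides and glycoproteins, is described although it did not pass, and was chosen after its values were seen. It was at 68.9 to 83.3 TPM in the 6 CTR libraries, with a median of 77.6 TPM, and at 86.8 to 242 TPM in the 22 knockout libraries, with a median of 111 TPM. On the TPM scale the groups did not overlap, a share not taken over all genes. In CPM they overlapped. The clone labelled p65 replicate 1, at 113 CPM untreated and 108 CPM with LPS, was below CTR replicate 1 with LPS, at 114 CPM. The log2 difference with LPS was 0.70 in the mean of the knockouts (SE 0.22, adjusted p = 0.15), and in RELB against CTR it was 1.32 (SE 0.29, adjusted p = 0.11). The RELB clones stood far apart: replicate 1 averaged 220 TPM and replicate 2 averaged 132 TPM.

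**Figure D3:**
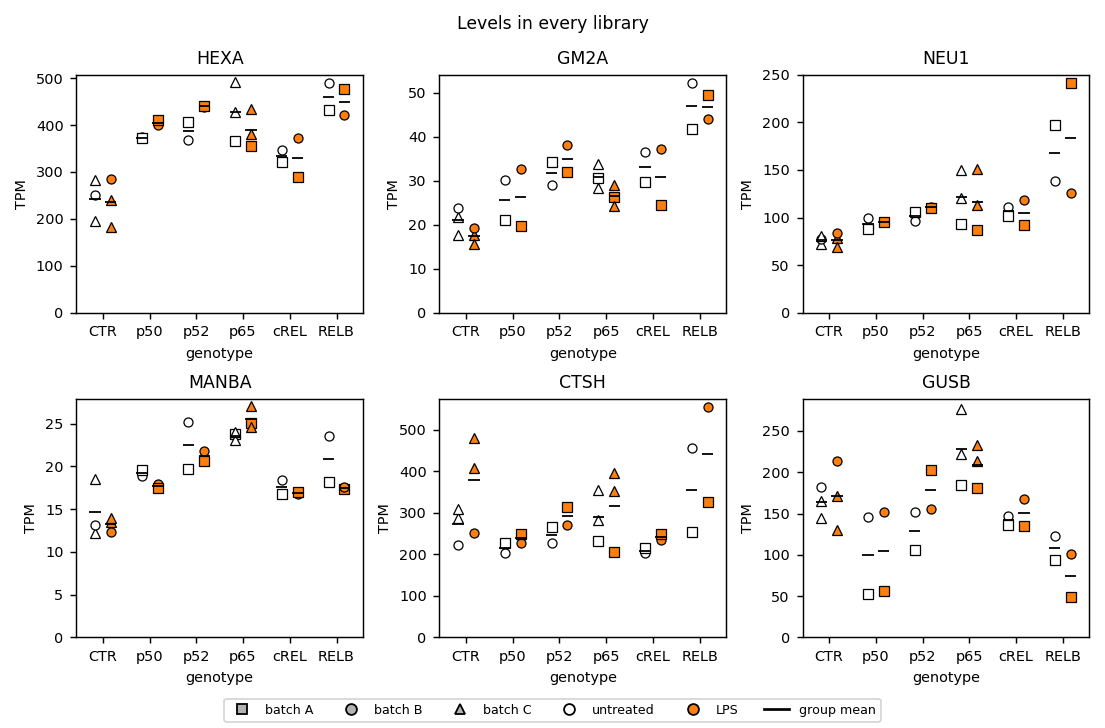
TPM (vertical axes, from 0) of 6 lysosomal genes in every library, by genotype, with open points for untreated and filled points for LPS, the point shape for the sample batch and a bar for the group mean. HEXA is above all CTR libraries in every knockout library, and CTSH and GUSB differ between clones and batches within a genotype.

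MANBA, the lysosomal beta-mannosidase at chr4:102630770-102760994 on the minus strand, was the member that passed in p65 with LPS, where 0.993% of all genes passed. It was at 12.3, 13.2 and 18.5 TPM in untreated CTR and 13.5, 12.4 and 14.01 TPM with LPS, against 23.7, 23.1 and 24 TPM in untreated p65 and 25.1, 27.1 and 24.6 TPM in p65 with LPS. On the TPM scale the groups did not overlap in either treatment, and in CPM this held with LPS only. In CPM, 6.59% of all genes were higher in p65 without overlap with LPS and 5.32% untreated. With LPS 7 members were, MANBA among them. In the other knockouts the untreated values of MANBA were 18.9 and 19.6 TPM in p50, 25.2 and 19.8 in p52, 18.4 and 16.8 in cREL, and 18.2 and 23.6 in RELB. With LPS they were 17.9 and 17.5 TPM in p50, 21.8 and 20.7 in p52, 16.7 and 17.1 in cREL, and 17.4 and 17.6 in RELB. The log2 difference of p65 with LPS was 0.79 (SE 0.17, adjusted p = 0.0281). Without the clone labelled p65 replicate 1 it was 0.70 (adjusted p = 0.186), in batch C alone 0.69 (adjusted p = 0.499) and without the batch term 0.75 (adjusted p = 0.158). The call also ended without CTR replicate 1, CTR replicate 2, p50 replicate 2, p65 replicate 2, p65 replicate 3 or either cREL clone, with adjusted p-values of 0.0521 to 0.131.

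Leaving aside GM2A in RELB with LPS, MANBA in p65 with LPS was the member that passed in a single knockout, where 0 to 0.0537% of all genes passed untreated and 0.0483 to 0.993% with LPS, and the counts at an unadjusted p under 0.05 follow. Untreated, 5 members were higher in p50 (3.03% of all genes), 10 in p52 (3.87%), 8 in p65 (5.66%), 9 in cREL (3.13%) and 12 in RELB (5.36%), with 0, 0, 3, 1 and 0 lower (3.39%, 3.73%, 7.21%, 2.65% and 5.69% of all genes). With LPS, 5 were higher in p50 (3.52% of all genes), 12 in p52 (4.71%), 8 in p65 (5.92%), 6 in cREL (3.65%) and 14 in RELB (4.59%), with 1, 0, 1, 1 and 1 lower (6.37%, 5.17%, 6.51%, 5.49% and 5.22% of all genes). The 14 in RELB include GM2A, whose value there was known beforehand and is not a test. All of these comparisons share the CTR libraries. In untreated p50 the members with the lowest p were HEXA (log2 difference 0.77) and the tripeptidyl peptidase TPP1 (0.87). In untreated p52 they were HEXA (0.71) and GRN (0.67, but −0.0699 without the batch term), in untreated p65 HEXA (0.61) and MANBA (0.63), and in untreated cREL HEXA (0.52) and GM2A (0.60). In untreated RELB they were PSAP (0.84) and HEXA (0.77). With LPS, TPP1 was at 0.92 in p50, GM2A at 0.88 in p52 and 0.81 in cREL. Without the clone labelled p65 replicate 1, 0 members passed in p65 in either treatment, and 33 of 43 untreated and 27 of 43 with LPS were above 0 (35 and 25 with it). The untreated values without it were 0.73 for HEXA and 0.58 for MANBA (adjusted p = 0.142 and 0.292). None of the values of single genes in this paragraph had an adjusted p under 0.05, and DESeq2 called 0 to 7 members per knockout and treatment.

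RELB clones differed from the other knockouts in CTSH and GUSB with LPS. Against the mean of the other 4 knockouts, 1 member was higher and 1 lower with LPS, where 1.76% of all genes passed, and none passed untreated (0.376% of all genes), where ATP6V0D1 (0.44, adjusted p = 0.297) and CTSH (0.46, adjusted p = 0.299) had the lowest p. CTSH, an aminopeptidase of the cathepsin family at chr15:78921058-78949574 on the minus strand, was at 254 and 456 TPM in untreated RELB and 326 and 556 TPM with LPS. Its values were 202 and 227 TPM untreated and 227 and 250 TPM with LPS in p50, 228 and 266 TPM untreated and 271 and 313 TPM with LPS in p52, and 203 and 216 TPM untreated and 236 and 250 TPM with LPS in cREL. In p65 they were 231, 355 and 282 TPM untreated and 205, 395 and 352 TPM with LPS. The RELB clones overlapped p65 in both treatments, and the CTR clones, at 287, 223 and 308 TPM untreated and 407, 251 and 481 TPM with LPS, overlapped RELB as well. The fitted log2 difference was 0.77 (SE 0.17, adjusted p = 0.0227). It rested on RELB replicate 2: without that clone it was 0.38 (adjusted p = 0.379) and without RELB replicate 1 it was 1.11 (adjusted p = 0.00331). Within batch the difference with LPS was 0.39 in A, for RELB replicate 1 against 4 clones, and 1.04 in B, for RELB replicate 2 against 3 clones. Without the batch term the value was 0.62 (adjusted p = 0.373), and 5 other clones ended the call when left out (adjusted p-values of 0.0524 to 0.0634), namely p50 replicate 1, both p52 and both cREL clones.

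GUSB, the beta-glucuronidase at chr7:65960684-65982314 on the minus strand, was lower in RELB. It was at 93.4 and 122 TPM in untreated RELB and at 48.8 and 100.4 TPM with LPS, against 165, 182 and 144 TPM in untreated CTR and 171, 213 and 130.5 TPM in CTR with LPS. In p50 GUSB was at 146 and 52.9 TPM untreated and 152 and 56.2 TPM with LPS, in p52 at 152 and 106 TPM untreated and 156 and 202 TPM with LPS. In p65 it was at 184, 222 and 277 TPM untreated and 181, 232 and 214 TPM with LPS, and in cREL at 147 and 137 TPM untreated and 168 and 135 TPM with LPS. All RELB libraries were below all CTR libraries, and p50 replicate 2 was as low as RELB. Within a treatment, 11.7% of all genes untreated and 12% with LPS were lower in RELB than in CTR without overlap in CPM. GUSB also passed between sample batches, higher in B than in A by 0.56 (adjusted p = 0.0128). The log2 difference of RELB from the other knockouts with LPS was −1.11 (SE 0.25, adjusted p = 0.025). Within batch A it was −1.26 and within batch B −0.79, and untreated −0.12 and −0.66. The call ended without RELB replicate 1 (−1.004, adjusted p = 0.253), without RELB replicate 2 (−1.23, adjusted p = 0.0698), without p52 replicate 2, p65 replicate 1, p65 replicate 2 or cREL replicate 2 (adjusted p-values of 0.0527 to 0.0659), and without the batch term (−1.07, adjusted p = 0.165). Of 12 tested monocytic markers, 8 were above 0 in RELB against the other knockouts in either treatment, and 1 passed untreated and 3 with LPS (CYBB, ITGAM and CD68, the last also a lysosomal membrane protein), all higher. CYBB, a subunit of the phagocyte oxidase, was higher by 2.98 with LPS and 2.51 untreated, and the integrin ITGAM by 1.87 with LPS (adjusted p = 0.00124, 0.0173 and 0.00236). Their part in the results on RELB was not tested.

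When each clone was compared with itself, the rise of NPC1 with LPS passed in CTR and RELB. NPC1, at chr18:23506184-23586898 on the minus strand, exports cholesterol from the lysosome together with NPC2. In the model without clones as blocks no member passed in any genotype: 0.408% of all genes passed in CTR, 0.129% in RELB, 0.0161% in p50, 0.0215% in p52, 0.0268% in p65, 0.0107% in cREL and 0.403% on average over the genotypes. At an unadjusted p under 0.05, CTSH and NPC1 were higher in CTR (3.59% of all genes) and CTSH in RELB (1.52%) and on average (2.6%). None were lower (1.52% of all genes in CTR, 1.37% in RELB and 1.65% on average), and 0 members were higher or lower in the other knockouts, where 0.961% and 0.827% of all genes were in p50, 1.11% and 0.848% in p52, 0.907% and 0.655% in p65, and 0.816% and 0.902% in cREL. The median log2 change of the members was 0.004 in CTR and 0.07 in RELB, against 0.0003 and 0.006 over all genes. In CTR, 9 of 43 members were higher with LPS in every clone (16.2% of all genes were) and 7 lower in every clone (13%).

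NPC1 was at 90.3, 167 and 156 TPM in the untreated CTR clones and at 190, 333 and 278 TPM in the same clones with LPS. All 3 clones rose, and by nearly the same ratio: in log2 CPM the changes were 1.02, 0.96 and 0.97. In RELB NPC1 went from 257 to 360 TPM and from 344 to 571 TPM, with log2 CPM changes of 0.39 and 0.84. The p50 clones had 165 and 79.9 TPM untreated and 183 and 98.0 TPM with LPS, changes of 0.02 and 0.0003 in log2 CPM. The p52 clones had 174 and 183 TPM untreated and 228 and 225 TPM with LPS (0.25 and 0.36 in log2 CPM). In p65 the values were 210, 110 and 550 TPM untreated and 204, 148 and 434 TPM with LPS (0.02, 0.30 and −0.006 in log2 CPM), and in cREL 185 and 157 TPM untreated and 212 and 147 TPM with LPS (0.33 and 0.06). The change was thus above that of every p50, p52, p65 and cREL clone in all 3 CTR clones and both RELB clones, and untreated levels differed widely between the p65 clones.

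With each clone as a block, NPC1 rose with LPS in CTR by 0.99 on the log2 scale (SE 0.09, adjusted p = 1.05e-05; 1.27% of all genes passed) and in RELB by 0.61 (SE 0.10, adjusted p = 0.00967; 0.435%). Averaged over the 6 genotypes the rise of NPC1 was 0.37 (SE 0.04, adjusted p = 6.5e-05; 0.886% of all genes passed). Without the block the CTR change was 0.98 (SE 0.42, adjusted p = 0.858), so the size was the same and the error larger. The CTR call of NPC1 held in all 14 blocked fits that left out a clone (0.96 to 0.99, adjusted p-values of 2.39e-06 to 0.000519), and the RELB call ended without RELB replicate 2 (0.38, adjusted p = 0.498). The response was smaller than in CTR by 0.98 in p50 (SE 0.13, adjusted p = 0.0185; 0.0107% of all genes passed) and by 0.88 in p65 (SE 0.12, adjusted p = 0.00806; 0.0752%). The differences from CTR were −0.68 in p52 (adjusted p = 0.378), −0.79 in cREL (adjusted p = 0.109) and −0.37 in RELB (adjusted p = 0.986), which did not pass. Without the clone labelled p65 replicate 1 the p65 difference was −0.85 (adjusted p = 0.151). The p50 call held in 8 and the p65 call in 10 of 14 blocked fits that left out a clone, with values of −0.98 to −0.93 and −0.97 to −0.82 and adjusted p-values of 0.00761 to 0.946 and 0.00299 to 0.151. The p50 call ended without CTR replicate 1 or 3, either p50 clone, p52 replicate 1 or p65 replicate 1, and the p65 call without CTR replicate 1 or 3 or p65 replicate 1 or 3.

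**Figure D4:**
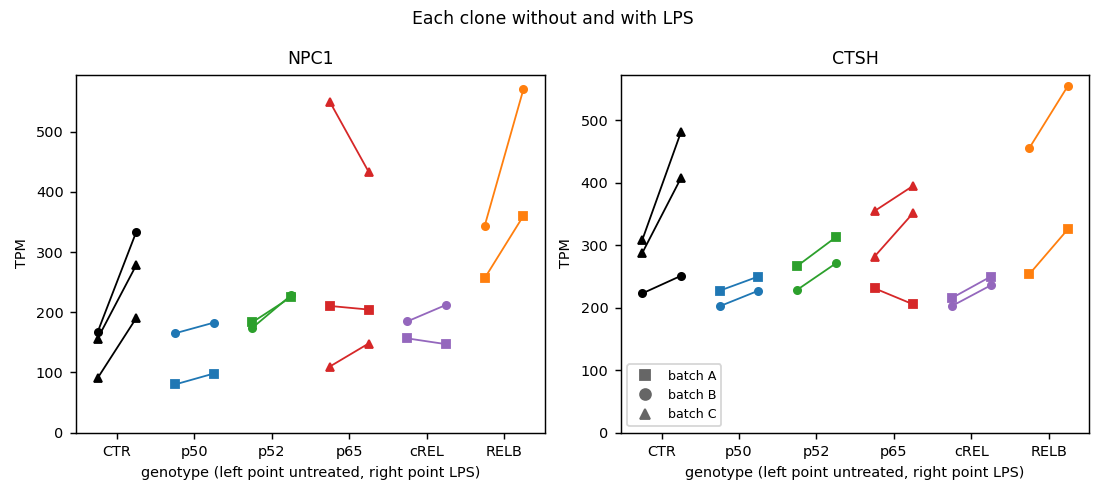
TPM (vertical axes, from 0) of NPC1 and CTSH in each clone, untreated (left point) and with LPS (right point) joined by a line, by genotype, with the point shape for the sample batch. NPC1 rises in all 3 CTR clones and both RELB clones. It rises by less in both p50 and both p52 clones, p65 replicate 2 and cREL replicate 1. CTSH rises in every clone but 1 of p65.

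CTSH rose with LPS on average over the genotypes by 0.28 on the log2 scale with clones as blocks (SE 0.05, adjusted p = 0.0149), and without blocks by the same 0.28 (SE 0.09, adjusted p = 0.487). It was higher with LPS in 13 of 14 clones, by 0.10 to 0.75 in log2 CPM, and lower by 0.11 in the clone labelled p65 replicate 1. The blocked call held in 9 of 14 fits that left out a clone and ended, at adjusted p-values of 0.0513 to 0.0686, without p50 replicate 2, either p52 clone, cREL replicate 2 or RELB replicate 2. No other member passed with blocks in any genotype.

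More members passed between sample batches than in any knockout comparison. Between batches B and A 5 members passed, all higher in B (10.1% of all genes passed), between C and A 9 passed, 8 of them higher in C (11%), and between C and B 10 passed, 9 of them higher in C (12.9%). Counts of passing members were the same with another scaling of the libraries. Among those that passed in B against A were IDUA, at 2.85 on the log2 scale (SE 0.36, adjusted p = 3.37e-05), and SCARB2, the receptor that carries glucocerebrosidase to lysosomes, at 0.71. In C against A the proteases CTSD (1.14), CTSA (0.98), TPP1 (0.85) and CTSH (0.75) were higher, as were GRN (1.02) and the membrane protein CLN3 (0.75), while the V-ATPase subunit ATP6V1H was lower (−0.43). As batch A holds no CTR clone and batch C only CTR and p65, differences of p50, p52, cREL and RELB from CTR within 1 batch rest on CTR replicate 2. Within batch B the median log2 difference of the members from that clone was 0.35 to 0.42 untreated and 0.21 to 0.41 with LPS, with 32 to 38 of 43 above 0. Within batch C, p65 replicates 2 and 3 had medians of 0.14 to 0.23, with 26 to 33 of 43 above 0.

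Few other genes of the pathway passed with genotype. In the mean of the knockouts with LPS, 0 of 24 tested further lysosomal hydrolases, 0 of 19 further membrane proteins, 0 of 14 further V-ATPase subunits, 0 of 23 genes of lysosomal transcription and nutrient sensing and 0 of 8 inhibitors of lysosomal cathepsins passed, against 0.838% of all genes. The median log2 difference of the further hydrolases was 0.25, close to that of the members, and 21 of 24 were above 0. Of 15 genes for the delivery of lysosomal enzymes GGA2, a sorting adaptor at the trans-Golgi, was higher by 0.71 (adjusted p = 0.0373). Of 24 autophagy genes the receptors OPTN and SQSTM1 were lower, by −1.13 and −0.70 (adjusted p = 0.0189 and 0.0397), and OPTN rose with LPS in CTR by 1.36 (adjusted p = 0.0186). Against the other knockouts with LPS, RELB had higher levels of the hydrolase SCPEP1 (1.57), the membrane proteins CD68 (1.14) and LITAF (0.79) and the autophagy genes GABARAPL1 (1.57), OPTN (1.15) and SQSTM1 (0.92), and a lower level of the peptidase DPP7 (−0.79), all with adjusted p-values of 0.00138 to 0.0442.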

How the data were processed

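The deposited gene tables used hold, by symbol, estimated counts, TPM and effective length. The submitters' processing notes name Salmon 0.11.3, FastQC 0.11.7 and build GRCh38; annotation and settings: not given in the sources used here. The deposited estimated counts were not scaled, and the TPM were scaled by the authors for length and library. Effective lengths in bases (unit other, deposited) served only as an offset.

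Counts were rounded and tested in R 4.3.3 with edgeR 4.0.16 (filterByExpr, minimum count 10 and total 15; TMM; robust quasi-likelihood) in 1 model of 12 groups plus batch (14 residual degrees of freedom, coefficient of variation 31.7%), for 26 comparisons and 3 batch differences. A gene passed at an adjusted p under 0.05. CPM are TMM-scaled, with a prior count of 2 on the log scale. The labels tie the untreated and the LPS library of each number to 1 clone. Deviations of these partners from their group means correlated at 0.203 to 0.441, in each of the 14 clones more than with the LPS libraries of the other clones of that genotype. In genotypes of 2 clones the deviations mirror each other, so this holds for any correlation above 0. Only CTR and p65 check it. A fit with the clones as blocks (8 residual degrees of freedom) is therefore printed where a call changes. Other settings were DESeq2 1.42.0; limma 3.58.1 (voom, clones as random effect); RLE scaling; a length offset; dropping the filter or the batch term; p65 and CTR in batch C only; and leaving out every clone in turn, which for the blocked fit was added after seeing the data. The models were run on simulated data with known changes. These data held no clone or batch effects, so they do not show how the models handle such effects. Clones of 1 line are the replicates. P-values of the main model measure the spread between clones within a group and take the 2 libraries of a clone as independent. Those of the blocked fit measure how the LPS change varies between clones of a genotype. In bulk RNA, fewer expressing cells and less RNA per cell cannot be told apart.

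The members and lists were chosen with earlier results of these data known. Genes named are GM2A, members that passed in a comparison, the member of highest TPM in each role and, where none passed, the 2 of lowest p; exceptions are marked. Positions are from GENCODE 29 and sequences from RefSeq (GRCh38.p14). Depth limits LGMN and CTSL, which were not tested. Some genes of the wider lists are not reported here.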

Additional observations from a re-analysis of the deposited data

Results flagged for a closer look

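The LPS response of NPC1 differed between genotypes when each clone was compared with itself. With clones as blocks it was lower in p50 than in CTR by −0.98 on the log2 scale (adjusted p = 0.0185) and lower in p65 than in CTR by −0.88 (adjusted p = 0.00806), by a test of the difference in response. Without blocks the differences were −0.97 and −0.93 with an adjusted p of 1.00 each.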

How the results depend on the processing

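Counts of passing members, GM2A included, changed with the filter, the tool and single clones. Without the filter on low counts, 1 member passed for LPS in CTR, 1 for LPS in p52 and 1 for LPS averaged, 1, 7 and 7 in untreated p52, p65 and RELB, 3, 3, 7, 2 and 9 in p50, p52, p65, cREL and RELB with LPS, 5 and 7 in the mean of the knockouts untreated and with LPS, 2 and 8 in RELB against the other knockouts, and 1 each for the difference in LPS response of p52 and of p65 from CTR. DESeq2 called 1, 3 and 6 in untreated p50, p65 and RELB, 1, 3, 3, 1 and 7 in p50, p52, p65, cREL and RELB with LPS, 3 and 6 in the mean of the knockouts, and 6 in RELB against the other knockouts with LPS. Limma voom called 1, 1 and 2 in p50, p52 and p65 with LPS. Without the batch term 0 passed in p65 with LPS and 0 in RELB against the other knockouts with LPS; batch C alone gave 0 in p65 with LPS, and the effective length offset 0 in RELB with LPS. With the replicate block 1 passed for LPS in CTR, 1 in RELB, 2 on average, and 1 each for the difference in response of p50 and p65; the block changed no other call.

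Leaving out each clone gave 0 to 1 members in untreated p65, 0 to 3 in untreated RELB, 0 to 1 in p50, 0 to 2 in p52, 0 to 2 in p65, 0 to 1 in cREL and 0 to 8 in RELB with LPS (8 without RELB replicate 2), 0 to 5 in the mean of the knockouts with LPS, and 0 to 3 and 0 to 7 in RELB against the other knockouts untreated and with LPS. In blocked fits it gave 1 to 2 for LPS in CTR, 1 to 2 in RELB, 1 to 2 on average and 0 to 1 for the differences in response of p50, p65, cREL and RELB. GRN in untreated p52 reversed from 0.67 to −0.0699 without the batch term (adjusted p = 0.393 and 0.993); the cause was not tested. A fit that leaves 1 clone in a group assumes that it varies like the others.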
